A study of Homo sapiens with 8 samples.

Results

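The genes described here are 10 receptors and ligands of growth factor signalling, namely the receptor tyrosine kinases EGFR, ERBB2, ERBB3, MET and AXL and the EGF family ligands AREG, EREG, HBEGF, TGFA and NRG1, out of 20052 protein-coding genes in the annotation. They were taken as a named list, and every acetylated region that touched one of the genes or the 50 kb on either side of it was kept. The mark was histone H3 acetylated at lysine 27 (H3K27ac), measured by ChIP-sequencing in MIA PaCa-2 cells, an established human pancreatic ductal adenocarcinoma line. MP2_HDAC1_OE cells carried the CRISPR activation vectors lentiMPHv2 and lentiSAMv2 with a guide RNA against the HDAC1 promoter, so that the histone deacetylase HDAC1 was overexpressed from its own locus, and MP2_NTC cells carried the same vectors with a non-targeting guide. Each line had 2 H3K27ac samples and 2 control samples without antibody. It had 1 pooled list of H3K27ac peaks that passed a reproducibility threshold, which held 25045 peaks in MP2_HDAC1_OE and 22569 in MP2_NTC. Because each line had a single pooled list, there were no replicate values, no errors over samples and no tests between lines, and the depth of the samples was unknown.

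The ERBB receptors work in pairs at the cell surface. EGFR binds AREG, EREG, HBEGF and TGFA, ERBB3 binds NRG1 and has little kinase activity of its own, and ERBB2 has no known ligand and serves as the preferred partner of the others. The ligands are made as membrane proteins and released by the proteases ADAM10 and ADAM17, while MET, the receptor for HGF, and AXL, the receptor for GAS6, can carry the same downstream signal through RAS and the MAP kinases when EGFR is blocked. H3K27ac is found at active promoters and enhancers, and histone deacetylases such as HDAC1 remove acetyl groups from it.

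Each peak came with a signal value whose scaling between the lists was not known, so a peak was placed by its rank, the percent of peaks in its own list with a lower signal. Peaks of the lists that shared at least 1 bp were merged into 1 region, called shared when both lists contributed and unique when only 1 did. A region was called gene-end when it touched an end of any annotated gene, taken as the 2 kb beyond that end and the first 1 kb within the gene, and distal otherwise. The list recorded peaks that passed a reproducibility threshold, so a gene without a peak is a gene with no reproducible peak in that list, which is not a measurement of absent acetylation.

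Of the genes 5, EGFR, MET, AXL, AREG and HBEGF, had a peak at their start in the MP2_HDAC1_OE list only. EREG had one in the MP2_NTC list only, ERBB2 had one in both and TGFA had one in neither. A start peak here overlapped the window from 2 kb before to 1 kb after any of the gene's listed starts, and 8 of the 10 genes had a start in the table used, all but ERBB3 and NRG1. This count at starts was added after the data had been seen. Counted over both gene ends, 3 of the 10 genes had a peak in the MP2_HDAC1_OE list only, 1 in the MP2_NTC list only and 4 in both. Over the 15842 protein-coding genes with a listed start, 6.36% had a start peak in the MP2_HDAC1_OE list only, 5.51% in the MP2_NTC list only and 39.3% in both. The start peaks found in 1 list were of modest signal. The strongest ranked at 56.0% at MET, 47.7% at EGFR, 43.0% at AREG, 41.8% at HBEGF and 26.1% at AXL in MP2_HDAC1_OE, and at 36.7% at EREG in MP2_NTC. For comparison, the median rank was 52.5% over all 1008 genes with a start peak in the MP2_HDAC1_OE list only (quartiles 36.5% and 67.6%), and 80.3% in MP2_HDAC1_OE over the 6231 genes with a start peak in both lists. When only the 50% of peaks with the highest signal in each list were kept, MET was the 1 gene left with a start peak in the MP2_HDAC1_OE list only and 0 were left in the MP2_NTC list only.

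The 250 bases that precede the first listed start of each of these 6 genes are printed. They were chosen as the sequences over or beside which the peaks of a single list lay. They are written 5′ to 3′ on the strand of the gene, from RefSeq, build GRCh38.p14, with matches to 3 motifs in capitals, namely the TATA box TATAAA, the GC box GGGCGG and the cyclic AMP response element TGACGTCA, each searched on both strands.
EGFR, chr7:55018767-55019016, plus strand: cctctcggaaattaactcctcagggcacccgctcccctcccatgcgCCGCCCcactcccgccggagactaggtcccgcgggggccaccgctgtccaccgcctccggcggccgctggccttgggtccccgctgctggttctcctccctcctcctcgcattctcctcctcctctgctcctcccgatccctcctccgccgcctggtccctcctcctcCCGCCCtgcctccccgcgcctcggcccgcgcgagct
MET, chr7:116671946-116672195, plus strand: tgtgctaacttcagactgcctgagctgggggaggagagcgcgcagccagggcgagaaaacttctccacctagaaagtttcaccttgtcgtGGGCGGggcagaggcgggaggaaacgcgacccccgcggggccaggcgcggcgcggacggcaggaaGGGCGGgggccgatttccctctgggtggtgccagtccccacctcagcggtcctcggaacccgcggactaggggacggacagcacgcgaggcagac
AXL, chr19:41218973-41219222, plus strand: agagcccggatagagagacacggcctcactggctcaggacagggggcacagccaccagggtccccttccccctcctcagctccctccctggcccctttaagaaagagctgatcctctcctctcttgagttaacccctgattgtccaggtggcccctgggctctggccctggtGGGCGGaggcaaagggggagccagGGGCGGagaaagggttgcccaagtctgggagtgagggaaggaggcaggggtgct
HBEGF, chr5:140346604-140346853, minus strand: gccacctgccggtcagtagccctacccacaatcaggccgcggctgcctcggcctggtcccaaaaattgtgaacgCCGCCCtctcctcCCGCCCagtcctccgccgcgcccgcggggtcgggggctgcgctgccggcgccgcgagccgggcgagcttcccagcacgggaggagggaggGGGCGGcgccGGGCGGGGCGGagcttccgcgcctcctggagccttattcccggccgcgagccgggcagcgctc
AREG, chr4:74444886-74445135, plus strand: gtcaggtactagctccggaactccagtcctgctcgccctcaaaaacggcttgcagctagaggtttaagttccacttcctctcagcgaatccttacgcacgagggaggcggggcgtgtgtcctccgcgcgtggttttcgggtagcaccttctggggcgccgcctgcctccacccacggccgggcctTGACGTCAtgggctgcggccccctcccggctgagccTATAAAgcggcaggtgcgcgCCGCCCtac
EREG, chr4:74364895-74365144, plus strand: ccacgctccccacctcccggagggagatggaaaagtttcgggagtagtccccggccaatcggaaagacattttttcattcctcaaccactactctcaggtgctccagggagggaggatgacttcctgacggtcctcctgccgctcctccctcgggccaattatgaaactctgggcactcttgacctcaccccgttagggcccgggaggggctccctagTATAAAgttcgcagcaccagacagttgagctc

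The letters fell into groups. The ligands AREG and EREG each held a TATA box, its first base 29 bases before the start in AREG and 32 bases before it in EREG, and AREG also held a cyclic AMP response element beginning 65 bases before the start. The printed sequences of the receptors EGFR, MET and AXL and of the ligand HBEGF held no TATA box. HBEGF held 5 GC boxes, 3 of them close together, EGFR, MET and AXL held 2 each, AREG held 1 and EREG 0. Over all 35116 promoters in the table, a TATA box was present in 10.7%, a GC box in 42.6% and the cyclic AMP response element in 1.65% of the same 250 bases. The fourth motif searched, the AP-1 site TGAGTCA, was in none of the 6 sequences and in 4.2% of all promoters. EGFR and AXL also had a second listed start, and the bases before it are not printed. Those of EGFR held 2 TATA boxes and 2 AP-1 sites, and those of AXL held none of the motifs searched. Bases G and C made up 76.4% of the HBEGF sequence, 73.6% of EGFR, 68.4% of MET, 65.2% of AREG, 64.4% of AXL and 58.0% of EREG, against a median of 58.0% over all promoters. AXL was poor in CG pairs for its base composition, with 4, while HBEGF had 33 and the median promoter 11. The MP2_HDAC1_OE peaks covered 250 of these bases at MET, 240 at HBEGF, 138 at AREG, 83 at AXL and 0 at EGFR, where both peaks lay inside the gene. At EREG the MP2_NTC peaks likewise lay inside the gene and covered 0. A match of letters is a description of the sequence and not evidence that a factor was bound.

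**Figure D1:**
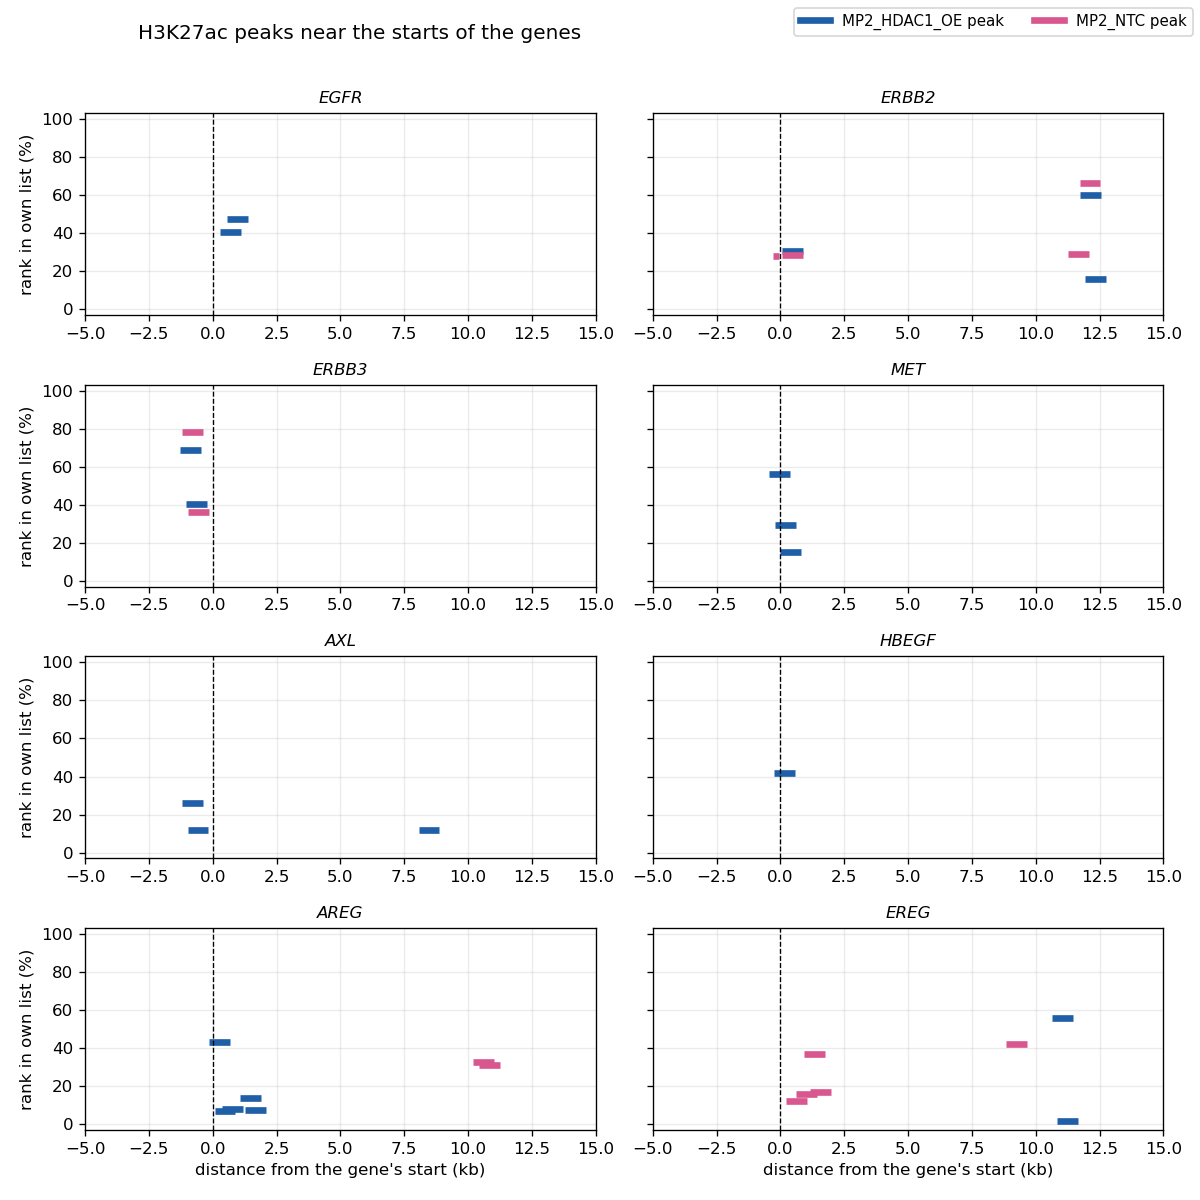
H3K27ac peaks from 5 kb before to 15 kb after the start of the 8 genes that had a region. The horizontal axis is distance from the start in kb along the direction of transcription (for ERBB3 the lower-coordinate end of the gene was taken as its start), the vertical axis is the rank of the peak in its own list in percent, each bar spans 1 peak, blue for MP2_HDAC1_OE and pink for MP2_NTC, and the dashed line is the start. Near the line EGFR, MET, AXL, HBEGF and AREG have blue bars only, EREG pink bars only, and ERBB2 and ERBB3 both.

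EGFR, the receptor at the centre of the family, is a gene of 192.6 kb, and its acetylation lay at the start in MP2_HDAC1_OE and deep inside the gene in both lines. Both start peaks of MP2_HDAC1_OE, at chr7:55019307-55020126 and chr7:55019586-55020405, had signals of 41.9 and 45.2 (ranks 40.7% and 47.7%). The region they formed also lay at an end of the annotated gene LOC105375284, and cannot be assigned to either gene from these data. No MP2_NTC peak was nearer to the start of EGFR than 46.2 kb. There, at chr7:55065265-55066560, a shared region ranked at 40.8% in MP2_HDAC1_OE (signal 41.9) and at 6.8% in MP2_NTC (signal 18.6), a difference of 34.0 percentage points. A cluster further inside, beginning 109.8 kb from the start, ran mostly the other way. It opened with 2 regions unique to MP2_NTC, at chr7:55128778-55129924 (rank 14.0%) and chr7:55130729-55131862 (rank 50.2%). The next region, chr7:55132365-55133607, was shared and ranked at 78.4% in MP2_NTC (signal 71.5) and at 29.6% in MP2_HDAC1_OE (signal 36.4), 48.8 points apart and the widest gap of any shared region of the 10 genes. The region closing the cluster was again unique to MP2_HDAC1_OE, at chr7:55133737-55134023 with rank 71.8%, and began only 129 bases beyond the nearest MP2_NTC peak. The regions of a single list in the cluster thus lay 129 to 2440 bases from the nearest peak of the other list, and which of them counts as unique depends on where the intervals end. The 48.8-point gap depends on this too. It leaves out the MP2_HDAC1_OE peak of rank 71.8% that began 129 bases beyond the shared region. A second listed start of EGFR, at chr7:55109839, had no peak in either list in its window. Downstream of the gene, a further MP2_HDAC1_OE region at an end of the long non-coding gene ELDR ranked at 34.5%, and the nearest MP2_NTC peak was 110210 bases away.

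**Figure D2:**
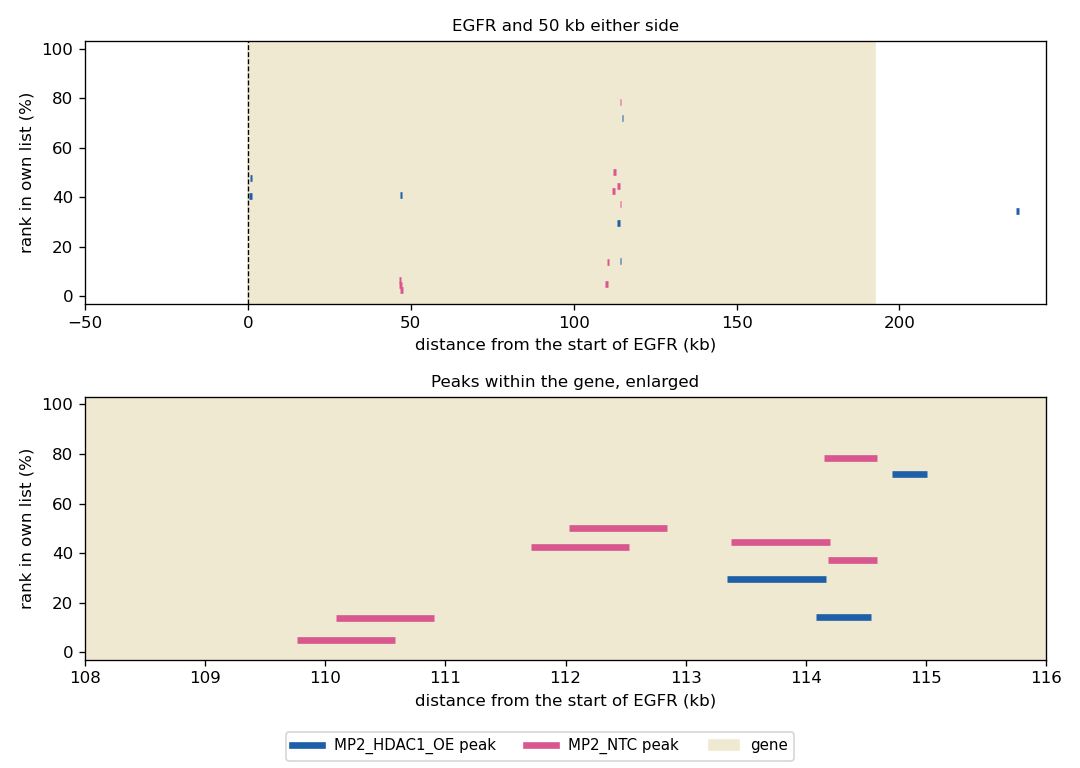
H3K27ac peaks along EGFR and the 50 kb on either side (upper panel) and the cluster inside the gene enlarged (lower panel). The horizontal axis is distance from the start of EGFR in kb, the vertical axis is the rank of each peak in its own list in percent, bars span the peaks of MP2_HDAC1_OE (blue) and MP2_NTC (pink), shading marks the gene and the dashed line its start. Only blue bars stand at the start. In the lower panel the pink bars reach 78.4% where the overlapping blue bars reach 29.6%, and a blue bar just beyond them stands at 71.8%.

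MET showed the same arrangement on a smaller scale, with a start region in MP2_HDAC1_OE and a shared region inside the gene. Its start region, chr7:116671768-116672997, held 3 MP2_HDAC1_OE peaks with signals of 49.7, 36.2 and 24.5 (ranks 56.0%, 29.3% and 15.2%), and the nearest MP2_NTC peak began 52.1 kb from the start. That peak belonged to the region chr7:116723886-116725269 in the gene body, which ranked at 86.8% in MP2_NTC (signal 83.5) and at 72.8% in MP2_HDAC1_OE (signal 60.9). The gene body region was therefore placed high in both lists, and the start in only 1.

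AXL had the weakest start peaks of the receptors, and stronger acetylation beyond its far end. Peaks of MP2_HDAC1_OE at chr19:41218020-41218839 and chr19:41218236-41219055 lay before the start, the nearer ending 168 bases from it, and had signals of 34.1 and 21.8 (ranks 26.1% and 11.9%). Another, at chr19:41227280-41228099 beside a second listed start of AXL, ranked at 11.7%, and the nearest MP2_NTC peak to the first start was 43.9 kb away. Those MP2_NTC peaks lay beyond the far end of AXL, where HNRNPUL1, a gene for an RNA-binding protein, begins. The shared region there, chr19:41263076-41263587, ranked at 92.9% in MP2_NTC and 86.6% in MP2_HDAC1_OE, and a further MP2_HDAC1_OE region between it and the gene ranked at 5.9%. High acetylation at the far end of AXL was thus common to both lines, and cannot be assigned to AXL or HNRNPUL1 from these data.

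ERBB2 and ERBB3, the receptors that work as partners, had acetylation at both ends of the gene in both lines. No start of ERBB3 was listed, and its lower-coordinate end was used in its place. At ERBB2 a peak of each list covered the identical interval chr17:39688168-39688987, with rank 30.6% in MP2_HDAC1_OE (signal 37.0) and 28.6% in MP2_NTC (signal 38.0). A second MP2_NTC peak, ending 36 bases before the start, ranked at 27.8% and lay 109 bases from the nearest MP2_HDAC1_OE peak. The peaks also lay in a gene-end window of PGAP3, and cannot be assigned to either gene from these data. Within ERBB2, the region chr17:39699372-39700855, 11.3 kb from the start, ranked at 60.0% in MP2_HDAC1_OE and 66.4% in MP2_NTC. The region just past the far end, which also lay at an end of MIEN1, ranked at 71.3% and 83.3%. Each of the 3 shared regions at or in ERBB2 thus differed by at most 12.0 points in rank between the lists.

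At ERBB3 the region chr12:56078843-56079947, which ended 161 bases before the gene, was shared and ranked at 69.0% in MP2_HDAC1_OE (signal 57.9) and 78.5% in MP2_NTC (signal 71.6). Beyond the other end of ERBB3, a shared region ranked at 79.8% in MP2_HDAC1_OE and 57.1% in MP2_NTC, 22.7 points higher in MP2_HDAC1_OE. It also lay at an end of PA2G4, a gene for a protein that binds ERBB3. From these data the region cannot be assigned to either gene. No peak lay inside ERBB3 itself.

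The ligands AREG and EREG, neighbours on chromosome 4, had start peaks in opposite lists. Of AREG, which encodes amphiregulin, MP2_HDAC1_OE had 5 overlapping peaks from the start into the gene, merged as chr4:74444998-74447235, with ranks from 7.0% to 43.0% and a highest signal of 42.9. MP2_NTC had none there, and instead had a pair of peaks past the downstream end, at chr4:74455339-74456383, of signals 40.3 and 39.2 (ranks 33.0% and 30.9%). The regions were 8103 bases apart, so that both lines had a gene-end region at AREG, at opposite ends. Of EREG, which encodes epiregulin, MP2_NTC had 4 overlapping peaks just inside the start, merged as chr4:74365378-74367121, with ranks from 12.4% to 36.7% and a highest signal of 42.2. MP2_HDAC1_OE had no peak within 10.6 kb of that start. The MP2_NTC region at the start also lay at an end of the annotated gene LOC105377276, and cannot be assigned to either gene from these data. Inside EREG the MP2_NTC region chr4:74373974-74374793 (rank 42.3%) and the MP2_HDAC1_OE region chr4:74375791-74376813 (rank 55.7%) were separated by 997 bases, and no region of either ligand was shared.

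The window of HBEGF, the ligand heparin-binding EGF-like growth factor, held a start region and a distal region in the MP2_HDAC1_OE list only. The peak over the start, chr5:140346024-140346843, had a signal of 42.4 (rank 41.8%), and a distal region 16.6 kb upstream, chr5:140363161-140364179, had a highest signal of 48.0 (rank 52.9%). The nearest MP2_NTC peak was 42.9 kb from the start of HBEGF, in a shared region at the neighbour PFDN1 that ranked at 80.2% in MP2_HDAC1_OE and 83.9% in MP2_NTC.

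TGFA and NRG1 had no region in the gene or the 50 kb on either side in either list. The peak nearest to TGFA, the ligand transforming growth factor alpha, was 145.1 kb from the gene in MP2_HDAC1_OE and 145.2 kb in MP2_NTC. For NRG1, which encodes a neuregulin and spans 1134.8 kb on chromosome 8, these distances were 697.1 kb and 604.5 kb. Of all protein-coding genes, 28.6% had no region in the same window. Of the 5 ligands, AREG, EREG and HBEGF thus had peaks in at least 1 list, and TGFA and NRG1 had none.

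The windows of the 10 genes together held 41 merged regions of 18678 in the whole data, built from 62 peaks of MP2_HDAC1_OE and 47 of MP2_NTC. Both lists contributed to 17 of them, MP2_HDAC1_OE alone to 15 and MP2_NTC alone to 9. Over all regions 28.6% were unique to MP2_HDAC1_OE and 20.7% to MP2_NTC. Distal regions numbered 17, with 6 unique to MP2_HDAC1_OE and 4 unique to MP2_NTC, beside 41.2% and 26.0% of all distal regions. The other 24 were gene-end regions, and 10 of them lay only at ends of genes other than the 10. ERBB2 had the most, with 10 regions, more than 95.7% of protein-coding genes, and EGFR, ERBB3 and AXL had 7 each, more than 89.4%. EREG and HBEGF had 3, and MET and AREG had 2. The windows take in neighbouring genes and are longer for longer genes, and 17 of the 41 regions lay neither at nor in one of the 10 genes. AXL, MET and HBEGF had no region unique to MP2_NTC, and at ERBB2 and EREG the regions unique to MP2_NTC outnumbered those unique to MP2_HDAC1_OE by 1.

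**Figure D3:**
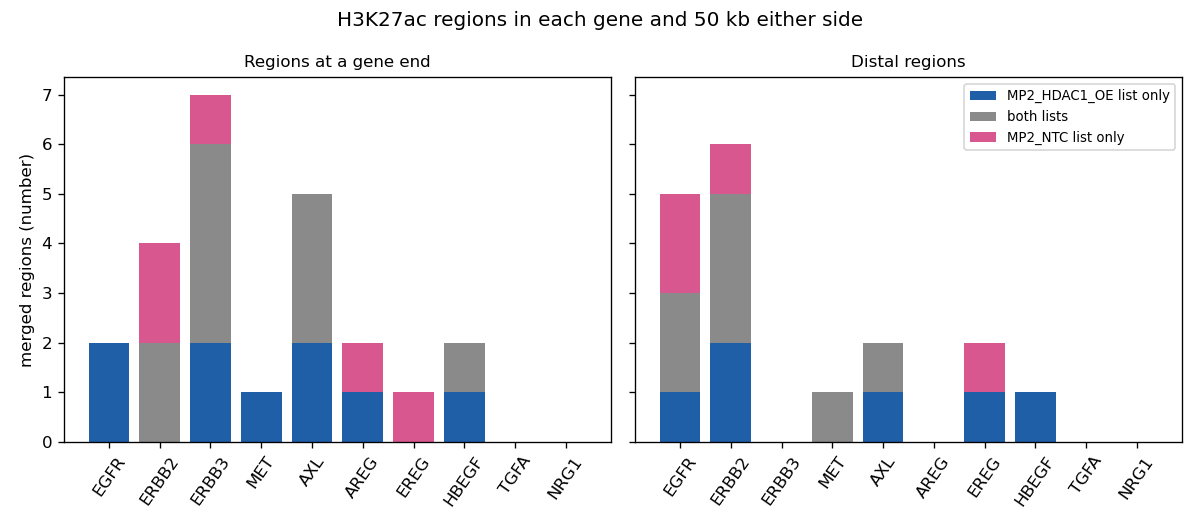
Number of merged H3K27ac regions in each gene and the 50 kb on either side, for regions at a gene end (left) and distal regions (right). The horizontal axis names the genes, the vertical axis is the number of regions, and the stacked bars show regions of the MP2_HDAC1_OE list only (blue), of both lists (grey) and of the MP2_NTC list only (pink). ERBB2 has the most regions, 10 in all, and TGFA and NRG1 have none.

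Shared regions allow a region to be placed in both lists. Over the 17 shared regions, which belonged to 6 of the genes, the median difference in rank was -2.19 percentage points (MP2_HDAC1_OE minus MP2_NTC, 95% order-statistic interval over regions -9.50 to 10.6), beside a median of 1.51 points over all 9477 shared regions. The interval treats regions as independent, although several lie in the window of the same gene, and it gives no error between lines. The rank was lower in MP2_HDAC1_OE in 9 of the 17, and in 45.3% of all shared regions. Differences of at least 20 points were 2 downward, beside 14.7% of all shared regions, and 4 upward, beside 19.7%. The downward ones were the EGFR gene body region and a region at MYL6B in the window of ERBB3, and the upward ones were the other shared region of EGFR, the region at PA2G4, one in the window of ERBB2 and one at CCDC97 in the window of AXL. The widest differences in both directions at or in one of the 10 genes were in EGFR. The downward one leaves out an MP2_HDAC1_OE peak of rank 71.8% that lay 129 bases away. The upward one in the window of ERBB2 leaves out an MP2_NTC peak of rank 81.7%, 306 bases away. Of the 9 shared regions at or in the genes, 6 ranked lower in MP2_HDAC1_OE.

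**Figure D4:**
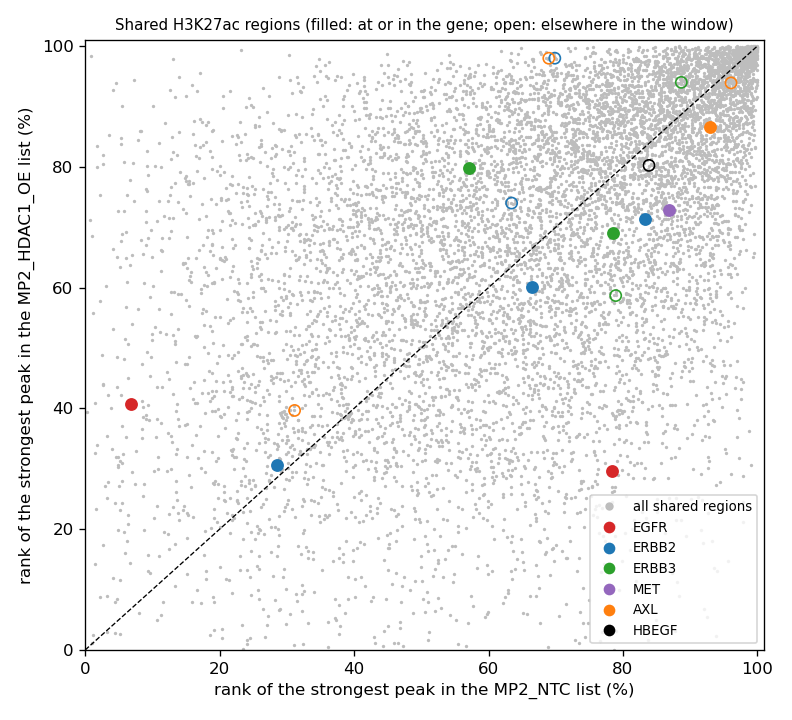
Rank of the strongest peak of each shared region in the MP2_NTC list (horizontal axis, percent) and in the MP2_HDAC1_OE list (vertical axis, percent). Small grey dots are all 9477 shared regions, coloured circles are the 17 shared regions of 6 genes, filled where the region is at or in the gene and open where it is elsewhere in the window, and the dashed line is equal rank. The filled EGFR points lie on opposite sides of the line, 34.0 points above and 48.8 points below it. The lower point leaves out an MP2_HDAC1_OE peak of rank 71.8% that lay 129 bases away.

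The rest of the pathway was read from 45 other genes by their gene ends, which hold starts and far ends alike. A peak was present in both lists for 23, in the MP2_HDAC1_OE list only for 3, in the MP2_NTC list only for 4 and in neither for 15. By the same measure the 10 genes had 4 in both lists (ERBB2, ERBB3, AXL and AREG), 3 in the MP2_HDAC1_OE list only (EGFR, MET and HBEGF), 1 in the MP2_NTC list only (EREG) and 2 in neither, and over all protein-coding genes these shares were 36.9%, 6.35%, 5.24% and 51.5%. The cascade below the receptors was marked in both lists for 8 of its 10 genes. BRAF, a kinase that relays the RAS signal, ranked at 99.8% in MP2_HDAC1_OE and 99.0% in MP2_NTC, and NRAS, ARAF and the RAS activator SOS1 were also among the highest, NRAS with 99.1% in MP2_HDAC1_OE, SOS1 with 98.6% and ARAF with 94.4% in MP2_NTC. The feedback inhibitor SPRY4 ranked at 96.7% in MP2_HDAC1_OE. The other ligands and receptors were mostly without peaks. Of 9 other ligands 7 had none in either list, HGF and GAS6 among them, and of 4 other receptors 3 had none.

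The pathway genes marked in 1 list did not fall in a single class. In MP2_HDAC1_OE these were RHBDF2, a partner of ADAM17 (75.2%), SPRY1, a feedback inhibitor (67.5%), and CBL, the ubiquitin ligase that marks active EGFR for degradation (57.7%). In MP2_NTC they were the kinase MAP2K2 of the MAP kinase cascade (72.8%), the phosphatase DUSP6, which inactivates ERK (50.2%), TYRO3, a receptor related to AXL (22.9%), and SPRED2, a feedback inhibitor (16.1%), although SPRED2 had a start peak in both lists. All 4 sheddase genes and partners had a peak in at least 1 list.

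**Figure D5:**
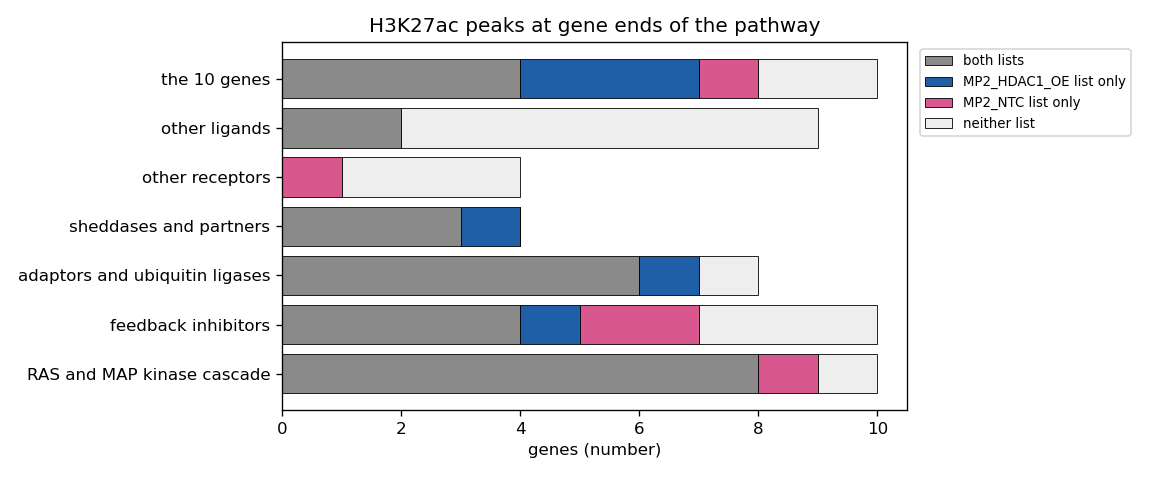
Number of genes with an H3K27ac peak in a gene-end window in both lists (grey), the MP2_HDAC1_OE list only (blue), the MP2_NTC list only (pink) or neither (white), for the 10 genes and for 6 groups of other genes of the pathway. The horizontal axis is the number of genes and each bar is 1 group. The cascade bar is grey for 8 of 10 genes, and the bar of other ligands is white for 7 of 9.

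The labels and cell identity were checked by the same measure. The strongest gene-end peak of HDAC1, the targeted gene, ranked at 93.9% in MP2_HDAC1_OE and 45.2% in MP2_NTC. Of the epithelial markers KRT8, KRT18 and KRT19 had a peak in both lists and EPCAM, CDH1 and KRT7 in neither. KRT8 and KRT18 had the same strongest rank and signal in each list (61.1% in MP2_HDAC1_OE and 76.2% in MP2_NTC). KRT19 ranked at 42.8% in MP2_HDAC1_OE and only 6.9% in MP2_NTC. The start of KRT8 had a peak in the MP2_HDAC1_OE list only. Of the mesenchymal markers VIM and ZEB1 had one in both and CDH2 and FN1 in neither. The leukocyte markers PTPRC and CD3E and the endothelial marker PECAM1 had none. CD14, also a leukocyte marker, had peaks in the MP2_NTC list only (strongest rank 24.4%). CDH5, also an endothelial marker, had 1 in each list, ranked at 67.9% in MP2_HDAC1_OE and 47.7% in MP2_NTC. Whether these marker differences had a part in the calls above was not tested. The MP2_HDAC1_OE list was the longer one, and with as many peaks kept in each list the regions numbered 15 unique to MP2_HDAC1_OE (7 distal), 9 unique to MP2_NTC (4 distal) and 17 shared. In that setting 7 of the genes had a gene-end peak in MP2_HDAC1_OE and 5 in MP2_NTC, and start peaks in a single list were again 5 and 1.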

How the data were processed

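H3K27ac ChIP-sequencing was measured in MP2_HDAC1_OE and MP2_NTC cells. Chromatin was precipitated with an antibody against H3K27ac and sequenced as 75 bp single-end reads. The labels' processing notes name hg38, BWA 0.7.12 and Picard 1.88, and the authors used the ENCODE pipeline and deposited the optimal reproducible (IDR) peaks of each line. The peak caller is not given in the sources used here. The deposited signal is a positive value per peak, on a scale not stated between lines. The deposited score was not used. No depth accompanies the peaks, so no counting interval is given.

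Peaks were read with Python 3.11.15, pandas 2.3.3 and numpy 2.4.6, merged by 1 shared bp, and assigned to genes of the RefSeq table (GRCh38.p14, 59788 genes). Ranks and windows were as stated above. The lists repeat intervals for several summits, 1181 times in MP2_HDAC1_OE and 970 in MP2_NTC. On simulated data 3000 of 3000 regions received the right class. The simulated regions lay far apart with at most 1 peak per list, so closely spaced peaks were not tested. Promoter sequences had an entry for 8 of the 10 genes. All 10 genes were named, and of the pathway list every gene with a gene-end peak in 1 list only and the 3 of highest rank per list. The genes and lists were chosen with earlier results of these data known. Alternatives varied the overlap, window, gene-end definition and number of peaks.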

Additional observations from a re-analysis of the deposited data

How the results depend on the processing

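Of 67 alternatives to the 10 counts and medians, 46 stayed within 1.5 times the value reported or kept its side. Counted as single peaks, those without a partner by 1 bp were 27 in MP2_HDAC1_OE (10 distal) and 16 in MP2_NTC, with 35 shared, and by 50% of both peaks 37 (14 distal) and 22 (8 distal). With 10 kb either side, regions unique to MP2_HDAC1_OE were 9 (3 distal) and shared regions 10. With 100 kb, distal regions unique to MP2_HDAC1_OE were 10, regions unique to MP2_NTC 14 and shared regions 26. Counting only regions whose nearest protein-coding gene was one of the 10 left 9 unique to MP2_HDAC1_OE (3 distal), 5 unique to MP2_NTC and 6 shared. With gene starts in place of both ends, genes with a region in MP2_NTC fell to 2. ERBB3, which had a gene-end peak in both lists, had no listed start and could not be counted there. The counts of start peaks and all their alternatives were added after seeing the data, and with the 50% of peaks of highest signal, start peaks in 1 list only were 1 in MP2_HDAC1_OE and 0 in MP2_NTC. Distal regions unique to MP2_NTC were also 3 with 10 kb either side and 3 by nearest gene, so that the lists had equal numbers there. No paired analysis was possible because the samples of a line enter a single list, and leaving out a sample could not be done either. The unknown depth limits every statement that a list had no peak.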

Other observations

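Several neighbours of the receptors carried regions of 1 list that lay close to a region of the other. Beside ERBB3, the region at RPL41, a ribosomal protein gene, chr12:56116714-56117601, was unique to MP2_NTC with rank 85.0% and lay 296 bases from a region unique to MP2_HDAC1_OE of rank 19.3%. Beside ERBB2, the region at an end of GRB7, an adaptor protein gene, was unique to MP2_NTC with rank 33.5%. It was separated from the nearest MP2_HDAC1_OE peak by 677 bases. Further along that window a region unique to MP2_NTC with rank 81.7% lay 306 bases from a shared region that ranked at 98.0% in MP2_HDAC1_OE and 69.9% in MP2_NTC. Beside AXL, the region at CCDC97 ranked at 98.0% in MP2_HDAC1_OE and 69.0% in MP2_NTC. At RPS26, another ribosomal protein gene near ERBB3, the shared region ranked at 94.0% and 88.7%.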
